A study of Mus musculus with 9 samples.

Results

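The integrated stress response genes described here are 37 genes listed by name as members of the ATF4 pathway. Each gene was read from the RefSeq transcript with most counts, and the 37 are part of 24445 genes in the table. Counts were found for all 37, and 34 passed the filter on low counts and were tested. By role they are 3 eIF2 kinases, 7 transcription factors, 6 feedback and growth-brake genes, 11 genes of amino acid synthesis and one-carbon metabolism, 7 amino acid transporters and 3 secreted or surface targets. RNA came from bone marrow-derived macrophages of wild-type C57Bl/6 mice, cells grown in culture from marrow precursors, in 9 libraries of 3 groups. Veh_N cells were given vehicle for 1 h and vehicle for a further 24 h (n = 3). Veh_LPS cells were given vehicle for 1 h, then 24 h of lipopolysaccharide (LPS), the endotoxin of Gram-negative bacteria that activates Toll-like receptor 4 (n = 3). D2HG_LPS cells were first given D-2-hydroxyglutarate (D2HG) as its octyl ester, also for 1 h, and then 24 h of LPS (n = 3). The octyl group is used to carry the acid across the plasma membrane. The labels give no dose, and no group with the ester alone or with another octyl ester was analysed here.

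The integrated stress response begins with kinases that sense separate stresses: HRI (Eif2ak1) senses heme shortage and mitochondrial stress, PERK (Eif2ak3) misfolded protein in the endoplasmic reticulum, and GCN2 (Eif2ak4) uncharged tRNA. Each phosphorylates the translation factor eIF2, which slows most protein synthesis while the Atf4 mRNA, held back by upstream reading frames, is translated more. ATF4 then pairs with C/EBP proteins and switches on genes that make, import and charge amino acids, together with genes that feed back on the response. Because ATF4 is set largely by translation, its mRNA level does not report the protein, and phosphorylation of eIF2 was not measured here.

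The libraries held 16561655 to 22946292 counts over all transcripts, and 9451258 to 13759935 with 1 transcript kept for each gene. Levels are given as CPM, counts relative to library size after edgeR's TMM scaling. All 9 macrophage markers listed, among them Csf1r, Adgre1 and Cd68, were above 1 CPM in every group, and their summed level was 13427 to 15873 CPM in Veh_N, 12174 to 12678 in Veh_LPS and 12239 to 12977 in D2HG_LPS. Of 6 lymphoid and 6 erythroid or mast cell markers, none was above 1 CPM in any group. Other marker sets moved with treatment. The summed neutrophil and progenitor markers were 32.4 to 40 CPM in Veh_N, 75.4 to 93.2 in Veh_LPS and 68.8 to 84.6 in D2HG_LPS, and the summed dendritic cell markers 1.3 to 2.9, 18.2 to 20.7 and 18.8 to 20.3. The summed stromal and endothelial markers were 8.31 to 11.2, 134 to 154 and 75.3 to 85.8 CPM, and most of that sum was Kdr, the VEGF receptor gene. The part of these cells or genes in the results was not tested. In bulk RNA, a change in the makeup of a culture and a change in RNA per cell cannot be told apart. Nothing in the labels ties the replicates to different mice or dishes. The p-values therefore measure the spread between these samples alone, and that spread may be technical.

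Promoters of some members hold the sequence that ATF4 with C/EBP partners is known to bind, and the stretches below show it in part of these. The core searched was TGATGNAA, on both strands, in windows of 250 bases before to 50 after each start in a RefSeq promoter table (GRCm38.p6). Of the 37 members 32 had a window, and 10 of these (31.2%) held the core, beside 1219 of all 27025 genes in the table (4.51%). With the 250 upstream bases alone, 8 of 32 members (25%) held it, beside 3.91% of all genes. Because the members were listed as genes of the ATF4 pathway, these higher shares are no independent result. By contrast, the palindromic cAMP response element TGACGTCA was found in 1 member, Ppp1r15a (3.12%), beside 2.03% of all genes. Capitals mark the core, read 5′ to 3′ on the strand of the gene, so that TTGCATCA and TTACATCA are cores on the opposite strand. Chac1, Nupr1 and Jdp2 were among the members higher with the ester, and Atf3, Asns and Pck2 among those that were not called.
Chac1, chr2:119351019-119351086, plus strand: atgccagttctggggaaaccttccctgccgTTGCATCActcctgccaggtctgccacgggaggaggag
Nupr1, chr7:126625543-126625610, minus strand: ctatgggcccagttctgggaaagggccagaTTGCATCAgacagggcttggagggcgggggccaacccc
Jdp2, chr12:85599353-85599415, plus strand: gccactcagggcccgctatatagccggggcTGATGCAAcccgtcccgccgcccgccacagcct
Atf3, chr1:191183406-191183473, minus strand: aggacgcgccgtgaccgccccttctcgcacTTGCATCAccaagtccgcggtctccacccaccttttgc
Asns, chr6:7693210-7693262, minus strand: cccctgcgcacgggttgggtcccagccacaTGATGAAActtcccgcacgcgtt
Pck2, chr14:55540133-55540200, plus strand: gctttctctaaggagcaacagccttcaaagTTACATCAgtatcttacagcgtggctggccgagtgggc

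In these genes the core lay upstream of the start, from 23 to 16 bases before it in Asns and from 33 to 26 in Jdp2 to 193 to 186 bases before it in Chac1. Atf3 and Nupr1 held the same 8 letters at the same distance, 110 to 103 bases before the start. The other members with a core were Pycr1 and Vldlr upstream, Slc1a4 across the start and Trib3 after it. The Trib3 window is one of 3 whose bases after the start did not match an annotated transcript. Of the 8 members called higher with the ester 4 held a core (3 without Trib3), of the 21 that had a window and were not called 4 did, and of 3 too low to test 2 did. These are descriptions of the letters in the windows, and binding was not measured.

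The comparison of D2HG_LPS with Veh_LPS gives the difference between LPS-treated cells with and without the ester. Without a group given the ester alone, a changed response to LPS and a separate effect of the ester cannot be told apart. The members that rose were the transcription factor genes Atf4, Cebpg, Jdp2 and Nupr1, the feedback genes Trib3, Chac1 and Sesn2, and Gdf15. In counts, 8 of the 34 tested members were called higher at an adjusted p below 0.05 (quasi-likelihood F-test of edgeR, adjusted by Benjamini-Hochberg over 11622 genes), beside 1.15% of all genes. None was called lower, beside 0.955% of all genes, and at an unadjusted p below 0.05 edgeR put 16 members higher and 1, Ppp1r15a, lower, beside 936 higher and 896 lower of all 11622 genes. DESeq2 and limma-voom each called 8 members higher and 0 lower. The sets were not all the same, since DESeq2 gave no adjusted p for Chac1 and called Slc38a2 in its place. The median log2 fold change was 0.29 over the 34 members and 0.01 over all genes, and 28 of the 34 values were positive, beside 6006 of 11622. The members were chosen with earlier results of these data known, so contrasts with all genes, here and below, are no independent result. Among the 30 members over the filter on low counts in every library, 7 were called higher. The remaining one, Chac1, passed the filter only through the D2HG_LPS libraries, so it could be tested only because it was high there.

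The count changed with single libraries, as did that over all genes. It was 2 without D2HG_LPS replicate 1, 3 without Veh_LPS replicate 1, and 5 without D2HG_LPS replicate 2 or replicate 3. All genes called higher were 35, 43, 53 and 48 in these omissions, against 134 with every library. Members called were 8 without Veh_LPS replicate 2 and 6 without Veh_LPS replicate 3 or Veh_N replicate 2, beside 73, 85 and 78 genes. Without Veh_N replicate 3 or 1 they were 9 and 11, beside 171 and 230 genes. Kdr was the 1 marker of another cell type that was called with the ester, and it fell from 140 ± 9.84 to 77.3 ± 5.03 CPM (SD, n = 3).

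**Figure D1:**
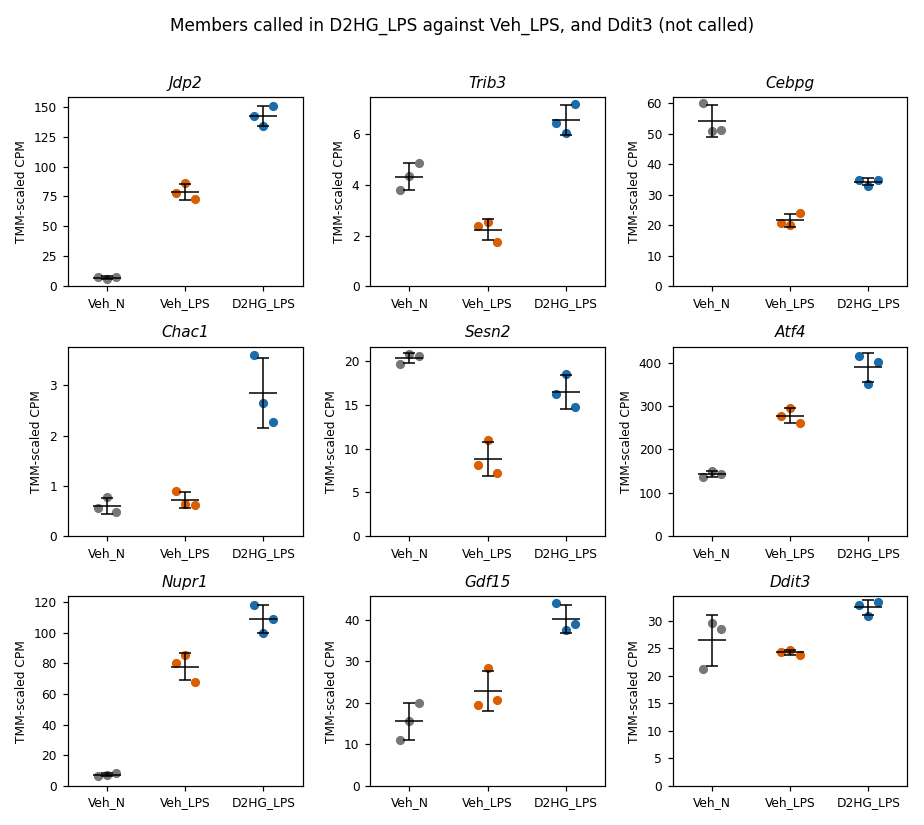
Level of each of the 8 members called higher with the ester, and of Ddit3, which was not called, as TMM-scaled CPM on a linear axis that starts at 0. Points are libraries, the horizontal line is the mean and the bars are 1 SD (n = 3 per group). In every panel the D2HG_LPS points lie above the Veh_LPS points, while Cebpg in Veh_N (50.8 to 60 CPM) lies above both. The 8 called members were chosen by their call in this comparison, so their separation here is no independent result.

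Of the 7 transcription factor genes, 4 rose with the ester and none fell, beside 1.15% of all genes called higher and 0.955% lower. The median log2 fold change of the 7 was 0.48. Atf4, the central factor of the response, was at 277, 295 and 261 CPM in the Veh_LPS libraries and at 415, 351 and 401 CPM in D2HG_LPS. Every ester library was above every Veh_LPS library, and the log2 fold change was 0.49 ± 0.08 (SE, adjusted p = 0.0106, edgeR). Among omissions of 1 library, those of D2HG_LPS replicate 1, D2HG_LPS replicate 3 and Veh_LPS replicate 1 ended the Atf4 call, with adjusted p up to 0.0898 over the alternatives, and the value stayed between 0.44 and 0.55. Jdp2, which encodes a repressor that dimerises with Jun and ATF proteins, was at 78, 86.2 and 73 CPM in Veh_LPS and at 142, 134 and 151 CPM in D2HG_LPS. Its levels did not overlap, its log2 fold change was 0.85 ± 0.10 (adjusted p = 9.83e-04, edgeR), and it was called in all 18 alternatives.

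Cebpg encodes a C/EBP partner with which ATF4 binds DNA. It was at 20.6, 20.2 and 24.1 CPM in Veh_LPS and at 34.9, 32.9 and 34.8 CPM in D2HG_LPS. The groups did not overlap, and the log2 fold change was 0.66 ± 0.11 (adjusted p = 0.00701, edgeR). The call was lost without D2HG_LPS replicate 1 or Veh_LPS replicate 1, where the adjusted p reached 0.0522. Nupr1, a small stress-induced chromatin protein, was at 79.9, 85.3 and 68.1 CPM in Veh_LPS and at 118, 99.7 and 109 CPM in D2HG_LPS. These groups did not overlap either, but the log2 fold change of 0.48 ± 0.11 (adjusted p = 0.037, edgeR) lost its call in 8 of 18 alternatives, among them the omission of any D2HG_LPS library, of Veh_LPS replicate 1 or 3, or of Veh_N replicate 2.

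The 3 factors that were not called were Ddit3, Atf5 and Atf3. Ddit3 encodes CHOP, the factor tied to cell death in prolonged stress, and was at 24.4, 24.7 and 23.7 CPM in Veh_LPS and at 32.9, 30.9 and 33.5 CPM in D2HG_LPS. Every ester library was higher, yet the log2 fold change of 0.42 ± 0.12 did not pass adjustment (adjusted p = 0.118, edgeR). Atf5, a relative of ATF4 that also controls mitochondrial stress genes, was at 64.4 to 86.5 CPM in Veh_LPS and 90.8 to 112 in D2HG_LPS (log2 fold change 0.47 ± 0.15, adjusted p = 0.137, edgeR). All Atf5 levels here come from a transcript that RefSeq lists as non-coding, the one with most counts of the 2 listed. Ddit3 and Atf5 were called higher when the 2 groups were fitted alone and when Veh_N replicate 1 was left out. Atf3, a stress-induced factor that represses inflammatory genes in macrophages, was at 1058, 1111 and 951 CPM in Veh_LPS and at 1173, 1112 and 1231 CPM in D2HG_LPS. Its groups were only just apart and the log2 fold change was 0.17 ± 0.09 (adjusted p = 0.379, edgeR).

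Feedback genes held the largest ester differences among the members. Trib3 encodes a pseudokinase that restrains ATF4 and CHOP, and was at 2.37, 2.55 and 1.75 CPM in Veh_LPS and at 6.44, 6.06 and 7.2 CPM in D2HG_LPS. The lowest ester library was over the highest Veh_LPS library by a wide margin, the log2 fold change was 1.57 ± 0.20 (adjusted p = 0.00153, edgeR), and all 18 alternatives kept the call. Chac1, which encodes an enzyme that breaks down glutathione, was at 0.889, 0.637 and 0.613 CPM in Veh_LPS and at 3.61, 2.65 and 2.27 CPM in D2HG_LPS. Those levels came from 22 counts over the Veh_LPS libraries and 91 over D2HG_LPS, a ratio of 3.99 with a 95% counting interval of 2.48 to 6.68, and the log2 fold change was 1.98 ± 0.32 (adjusted p = 0.00728, edgeR). Without D2HG_LPS replicate 1 the adjusted p of Chac1 was 0.0521 (edgeR), and DESeq2 gave Chac1 no adjusted p. Since Chac1 passed the filter only through the D2HG_LPS libraries, its p-values and interval are no independent evidence of a rise.

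Sesn2 encodes a leucine-sensing brake on the growth kinase complex mTORC1. It was at 8.1, 11 and 7.26 CPM in Veh_LPS and at 16.2, 18.5 and 14.7 CPM in D2HG_LPS, with no overlap. Its log2 fold change was 0.92 ± 0.16 (adjusted p = 0.00975, edgeR), a call that ended when D2HG_LPS replicate 1, D2HG_LPS replicate 2 or Veh_LPS replicate 1 was left out (adjusted p up to 0.0658). Ddit4, another brake on mTORC1, was at 0.395, 0.318 and 1.05 CPM in Veh_LPS and at 0.975, 1.2 and 1.18 CPM in D2HG_LPS. These few counts overlapped between the groups, and Ddit4 was not called (log2 fold change 0.87 ± 0.46, adjusted p = 0.392, edgeR). Ppp1r15a encodes GADD34, the subunit that directs a phosphatase to eIF2 and so ends the response, and was at 81.6, 93.4 and 77.7 CPM in Veh_LPS and at 74.3, 65.3 and 69.4 CPM in D2HG_LPS. It was the feedback gene with the lowest value, a log2 fold change of -0.27 ± 0.10 that did not pass adjustment (adjusted p = 0.208, edgeR). Eif4ebp1, a translation inhibitor, had a log2 fold change of 0.20 ± 0.15 (adjusted p = 0.566, edgeR).

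Gdf15 encodes a secreted cytokine used as a marker of mitochondrial and integrated stress. It was at 19.5, 28.4 and 20.7 CPM in Veh_LPS and at 44, 37.5 and 39 CPM in D2HG_LPS. The groups did not overlap, and the log2 fold change was 0.82 ± 0.19 (adjusted p = 0.0477, edgeR). The call was just past the threshold and was lost in 10 of 18 alternatives, among them the omission of any D2HG_LPS library, of Veh_LPS replicate 1 or 3, or of Veh_N replicate 2, with adjusted p up to 0.205 and values of 0.71 to 1.00.

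Among the amino acid genes nothing was called with the ester. Of the 10 tested genes of synthesis and one-carbon metabolism, edgeR called 0, beside 1.15% of all genes called higher and 0.955% lower. With so few genes called, 0 of 10 does not set these genes apart. An unadjusted p below 0.05 was reached by 2, both higher, beside 936 higher and 896 lower of all 11622 genes. The median log2 fold change of the 10 was 0.19, with a range of -0.21 to 0.32. Asns, which encodes asparagine synthetase and is a standard ATF4 target, was at 123, 121 and 118 CPM in Veh_LPS and at 155, 143 and 138 CPM in D2HG_LPS. All 3 ester libraries were higher, but the log2 fold change of 0.26 ± 0.10 did not pass adjustment (adjusted p = 0.207, edgeR). Mthfd2, a mitochondrial one-carbon enzyme gene, was at 154, 157 and 148 CPM in Veh_LPS and at 187, 180 and 180 CPM in D2HG_LPS (log2 fold change 0.25 ± 0.09, adjusted p = 0.186, edgeR). Psat1, in serine synthesis, was at 152, 157 and 156 CPM and at 143, 152 and 149 CPM in the same groups. For Psat1 the ester libraries were level with or under the Veh_LPS libraries, with a log2 fold change of -0.07 ± 0.08 (adjusted p = 0.745, edgeR).

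For the 7 amino acid transporters edgeR also called 0 with the ester, beside 1.15% of all genes called higher and 0.955% lower. An unadjusted p below 0.05 was reached by 3, all higher, beside 936 higher and 896 lower of all 11622 genes. The median log2 fold change of the 7 was 0.27. Slc38a2 encodes SNAT2, an importer of small neutral amino acids that rises when they run short. It was at 37.4, 38.9 and 44.5 CPM in Veh_LPS and at 60, 54.7 and 58.8 CPM in D2HG_LPS. The groups were apart and the log2 fold change was 0.52 ± 0.13, but the adjusted p of 0.0626 (edgeR) missed the threshold, and it was called in 7 of 18 alternatives, DESeq2 among them. Slc7a5, the light chain of the leucine transporter LAT1, was at 42.7, 38.3 and 37.6 CPM in Veh_LPS and at 38.6, 41.3 and 36.7 CPM in D2HG_LPS. The libraries of Slc7a5 were intermixed (log2 fold change -0.02 ± 0.12, adjusted p = 0.951, edgeR). Slc3a2, the heavy chain shared by LAT1 and the cystine transporter, had 0.27 ± 0.08 (adjusted p = 0.129, edgeR).

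The kinase genes were not called with the ester, beside 1.15% of all genes called higher and 0.955% lower. Eif2ak1 was at 60.4, 61.3 and 75.4 CPM in Veh_LPS and at 64.5, 61 and 67.4 CPM in D2HG_LPS, and Eif2ak3 at 5.73, 6.68 and 7.96 and at 10.1, 7.43 and 7.7 CPM. Eif2ak4 was at 8.4, 7.96 and 7.96 CPM and at 9.46, 10.3 and 10.5 CPM, with all ester libraries higher. The log2 fold changes were -0.03, 0.30 and 0.32 (adjusted p 0.906, 0.407 and 0.203, edgeR). Whether regulators and amino acid genes differed in their response to the ester was not tested.

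**Figure D2:**
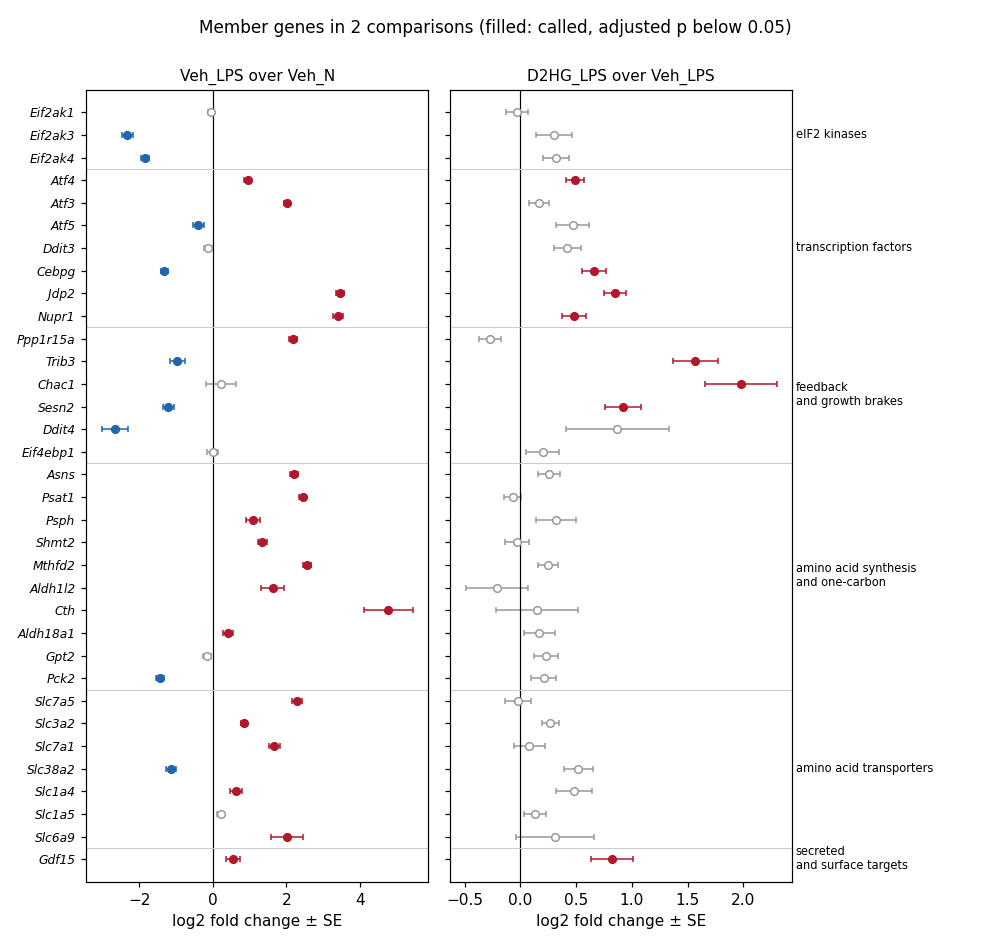
Log2 fold change with its standard error for each of the 34 tested members, ordered by role, for Veh_LPS over Veh_N and for D2HG_LPS over Veh_LPS. Filled points are members called at an adjusted p below 0.05 (edgeR), 28 in the first comparison and 8 in the other. Over all genes 35.0% were called higher and 38.9% lower in the first, and 1.15% and 0.955% in the other. The LPS values reach from -2.67 to 4.77 where the ester values reach from -0.27 to 1.98. The upper ends are Cth and Chac1, which passed the filter only through groups where they were high.

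Veh_LPS against Veh_N gives the LPS response of these genes without the ester. Most amino acid synthesis genes and transporters rose, among them Mthfd2, Psat1, Asns and Slc7a5. The kinase genes Eif2ak3 and Eif2ak4 fell, as did the feedback genes Ddit4, Sesn2 and Trib3. Of the 34 tested members 19 were called higher, beside 35.0% of all genes, and 9 lower, beside 38.9% of all genes (edgeR). Since most genes were called, a call alone does not set a member apart. The median log2 fold change was 0.59 over the members and -0.07 over all genes. Among the 30 members over the filter in every library 17 were higher and 8 lower.

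These counts depend on how libraries are scaled, since TMM factors were 1.338 to 1.351 in Veh_N and 0.8308 to 0.8871 in both LPS groups. With library totals alone the median gene moved by -0.67 and the member median was -0.08, 14 members were called higher and 14 lower, and the share of calls over all genes that were higher went from 47.4% to 21.8%. Upper-quartile scaling moved the median gene by -0.32 and gave a member median of 0.27, with 16 members higher and 12 lower and 33.2% of calls higher.

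Of 10 tested synthesis and one-carbon genes, 8 rose with LPS and 1 fell, beside 35.0% of all genes higher and 38.9% lower. The median log2 fold change of the 10 was 1.48. The 8 include Cth, which passed the filter only through libraries of the LPS groups, so it could be tested only because it was high there. Mthfd2 was at 27.7, 27.7 and 21.9 CPM in the Veh_N libraries, against 148 to 157 CPM in Veh_LPS, a log2 fold change of 2.56 ± 0.10 (adjusted p = 7.21e-11, edgeR). Psat1 was at 31.2, 29.2 and 25 CPM in Veh_N, against 152 to 157 CPM in Veh_LPS (2.44 ± 0.09, adjusted p = 5.96e-11). Asns was at 30.4, 26.3 and 22.4 CPM in Veh_N, against 118 to 123 CPM in Veh_LPS (2.20 ± 0.11, adjusted p = 8.07e-10). In all 3 genes the LPS libraries stood far above the vehicle libraries and close to each other. Shmt2, Psph and Aldh1l2, further enzymes of serine and one-carbon metabolism, rose by log2 fold changes of 1.34, 1.08 and 1.63, though Psph lost its call with library totals (adjusted p = 0.0639, edgeR). Cth, the enzyme gene that makes cysteine from cystathionine, was at 0.069, 0 and 0.0784 CPM in Veh_N and at 1.38, 1.38 and 1.75 CPM in Veh_LPS. With 2 counts in all in Veh_N and 47 in Veh_LPS, the ratio of Cth was 33.5 with a 95% counting interval of 8.77 to 285. Aldh18a1, in proline synthesis, rose by 0.41 ± 0.14 (adjusted p = 0.0187, edgeR) with TMM and had -0.26 with library totals, and its call was also lost with upper-quartile scaling and without Veh_LPS replicate 3 or Veh_N replicate 3. Pck2, the mitochondrial form of phosphoenolpyruvate carboxykinase, was the synthesis gene that fell, from 45.7 to 53.6 CPM in Veh_N to 16.8 to 20.1 CPM in Veh_LPS (-1.44 ± 0.11). Gpt2, an alanine aminotransferase gene, was not called (-0.15 ± 0.11, adjusted p = 0.225, edgeR).

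Of the 7 transporters 5 rose with LPS and 1 fell, beside 35.0% of all genes higher and 38.9% lower. The 5 include Slc6a9, which likewise passed the filter only through libraries of the LPS groups. Slc7a5 was at 9.45, 8.24 and 6.5 CPM in Veh_N, against 37.6 to 42.7 CPM in Veh_LPS, with no overlap (log2 fold change 2.29 ± 0.13, adjusted p = 4.09e-09, edgeR). Its partner Slc3a2 rose less, by 0.84 ± 0.08, a call lost with library totals (adjusted p = 0.0805, edgeR). The arginine and lysine importer Slc7a1 rose by 1.67 ± 0.15. Slc1a4, an exchanger of alanine, serine and cysteine, rose by 0.63 ± 0.17 (adjusted p = 0.00464, edgeR) with TMM but had -0.03 with library totals, and lost its call with upper-quartile scaling too. Slc6a9, the glycine transporter GlyT1, had 16 counts in Veh_N and 46 in Veh_LPS, a ratio of 4.1 with a 95% counting interval of 2.28 to 7.75. Slc38a2 moved the other way, from 106, 86.7 and 72.6 CPM in Veh_N to 37.4 to 44.5 CPM in Veh_LPS, and fell by 1.14 on the log2 scale. Slc1a5, the glutamine transporter, was not called (0.21 ± 0.10, adjusted p = 0.0874, edgeR).

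**Figure D3:**
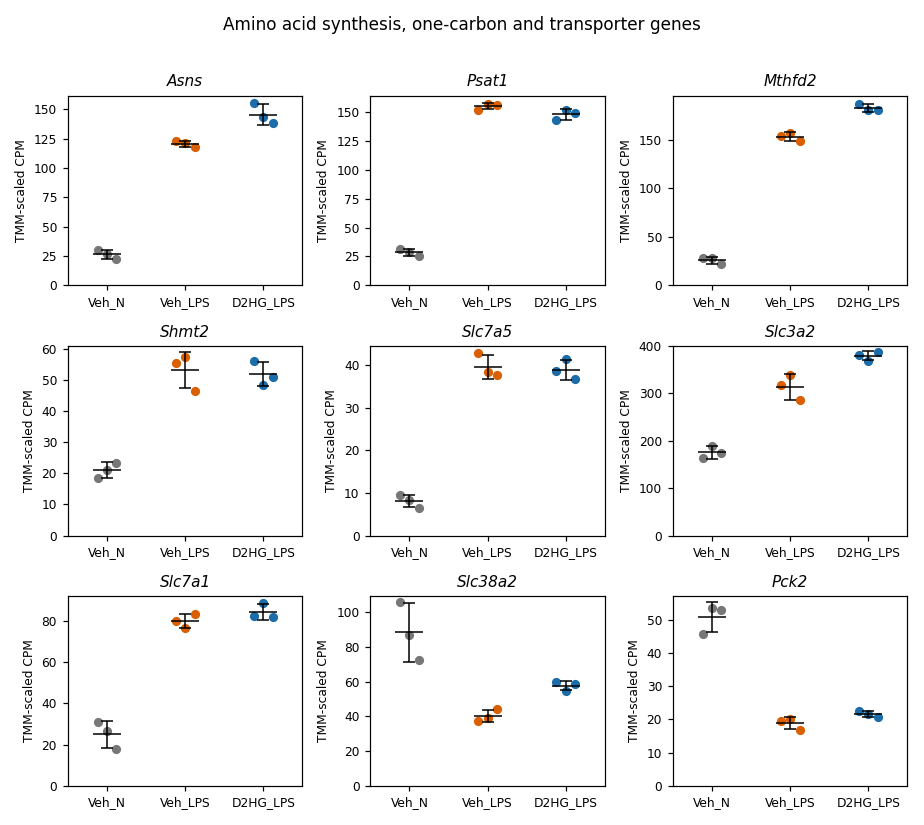
TMM-scaled CPM of 9 amino acid synthesis, one-carbon and transporter genes by library, on linear axes that start at 0, with the mean and 1 SD (n = 3 per group). Asns, Psat1, Mthfd2, Shmt2, Slc7a5, Slc3a2 and Slc7a1 are higher in both LPS groups than in Veh_N, and Slc38a2 and Pck2 are lower in both.

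Transcription factors moved in both directions with LPS, 4 higher and 2 lower of 7, beside 35.0% of all genes higher and 38.9% lower. Jdp2 was at 7.86, 5.93 and 7.84 CPM in Veh_N and at 73 to 86.2 CPM in Veh_LPS (log2 fold change 3.46 ± 0.12, adjusted p = 3.83e-11, edgeR). Nupr1 was at 6.69, 6.94 and 8.39 CPM and at 68.1 to 85.3 CPM (3.41 ± 0.13). For both genes every Veh_LPS library was far above every vehicle library. Atf3 was at 235, 282 and 255 CPM in Veh_N, against 951 to 1111 CPM in Veh_LPS, with a log2 fold change of 2.02 ± 0.09. Atf4 was at 137, 151 and 144 CPM in Veh_N, against 261 to 295 CPM in Veh_LPS, with a log2 fold change of 0.95 ± 0.09 (adjusted p = 4.33e-07, edgeR). Cebpg was the factor gene that fell most, from 60, 50.8 and 51.1 CPM in Veh_N to 20.2 to 24.1 CPM in Veh_LPS, by 1.32 on the log2 scale. Ddit3 was at 21.2, 29.6 and 28.5 CPM in Veh_N, overlapping with Veh_LPS (log2 fold change -0.13 ± 0.12, adjusted p = 0.368, edgeR). Atf5 was called lower with a log2 fold change of -0.40 ± 0.15 (adjusted p = 0.0265, edgeR), a call lost in the fit of these 2 groups alone and without Veh_N replicate 2 or 3 or Veh_LPS replicate 1 or 3.

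Of the 6 feedback genes, 1 rose and 3 fell with LPS, beside 35.0% of all genes higher and 38.9% lower. Ppp1r15a was the one that rose, from 16.6, 18.5 and 20.9 CPM in Veh_N to 77.7 to 93.4 CPM in Veh_LPS (log2 fold change 2.17 ± 0.11). Ddit4 was at 3.1, 3.79 and 5.02 CPM in Veh_N, all above the Veh_LPS libraries (-2.67 ± 0.36, adjusted p = 2.10e-05, edgeR). Its counts gave a ratio of 0.156 with a 95% counting interval of 0.092 to 0.252. Sesn2 fell from 19.7, 20.8 and 20.6 CPM in Veh_N (log2 fold change -1.22 ± 0.15), and Trib3 from 3.79, 4.33 and 4.86 CPM (-0.97 ± 0.21, adjusted p = 9.26e-04, edgeR). Chac1 was at 0.552, 0.771 and 0.47 CPM in Veh_N and was not called (0.22 ± 0.40, adjusted p = 0.644, edgeR), nor was Eif4ebp1 (0.00, adjusted p = 0.998). Gdf15 was at 11.1, 15.7 and 20 CPM in Veh_N. Its highest vehicle library was above its lowest Veh_LPS library, and the call of Gdf15 (0.55 ± 0.20, adjusted p = 0.0222, edgeR) was lost with upper-quartile scaling and without Veh_LPS replicate 2 or Veh_N replicate 1 or 2, with -0.12 under library totals.

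Of the kinase genes, Eif2ak3 was at 34.4, 33.1 and 35.1 CPM in Veh_N, several times its level in Veh_LPS (log2 fold change -2.33 ± 0.15, adjusted p = 1.15e-08, edgeR). Eif2ak4 was at 29.6, 30 and 28.4 CPM in Veh_N and likewise far lower in Veh_LPS (-1.86 ± 0.11). Eif2ak1 was at 68, 66.9 and 69.1 CPM in Veh_N, within the range of the Veh_LPS libraries, and was not called (-0.05 ± 0.09, adjusted p = 0.659, edgeR).

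**Figure D4:**
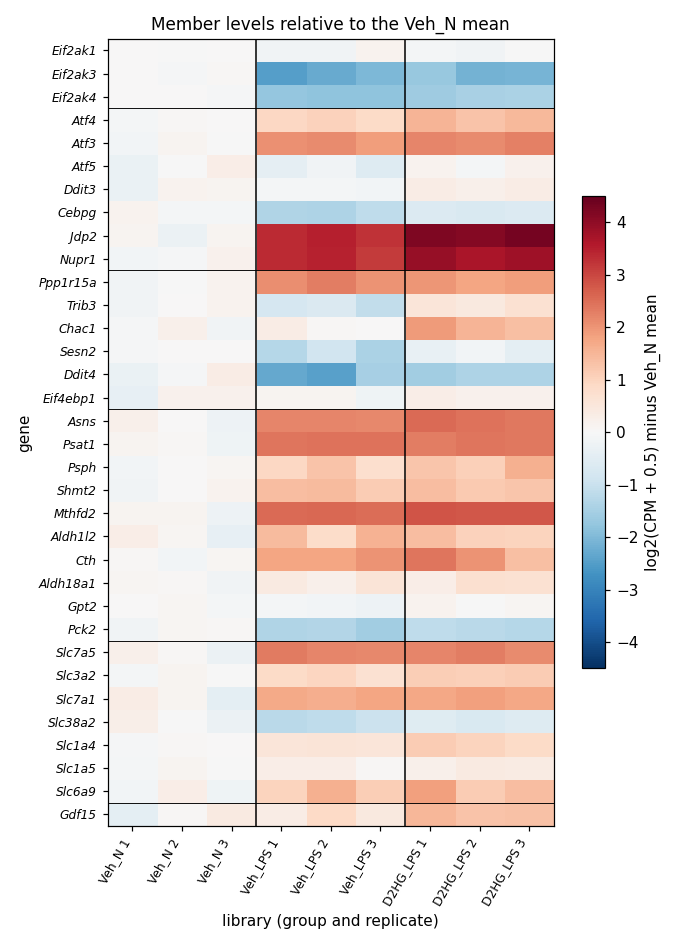
Log2 of CPM plus 0.5 for each tested member in each of the 9 libraries, minus the member's mean over the Veh_N libraries, with members in rows ordered by role. Asns, Psat1, Mthfd2 and Slc7a5 are raised in all 6 LPS libraries, while Cebpg, Sesn2 and Trib3 are lowered in the Veh_LPS libraries and nearer to or above the vehicle level in D2HG_LPS.

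D2HG_LPS was also compared with Veh_N, which gives the difference with both treatments together. Of the 34 members 23 were called higher, beside 35.4% of all genes, and 6 lower, beside 37.2% of all genes, with a median log2 fold change of 1.21 over the members and -0.04 over all genes (edgeR). Among the 30 members over the filter in every library 20 were higher and 5 lower. Library totals moved the median gene by -0.60, with 19 members higher and 13 lower and 23% of all calls higher in place of 48.8%. Upper-quartile scaling moved it by -0.29, with 19 higher and 8 lower and 34.4% of calls higher.

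The members called with the ester fell into groups by their LPS values, given side by side because both comparisons use the Veh_LPS libraries. Atf4, Jdp2, Nupr1 and Gdf15 were called higher with LPS and higher again with the ester, to log2 fold changes over Veh_N of 1.43, 4.31, 3.89 and 1.37. Cebpg, Trib3 and Sesn2 were called lower with LPS and higher with the ester. Cebpg in D2HG_LPS was still below Veh_N (-0.66 ± 0.10, adjusted p = 6.37e-05, edgeR). Sesn2 in D2HG_LPS was not called against Veh_N (-0.30 ± 0.14, adjusted p = 0.0713, edgeR). Trib3 in D2HG_LPS was above Veh_N (0.60 ± 0.18, adjusted p = 0.00769, edgeR) with TMM and at 0.00 with library totals. Chac1 was called with the ester and not with LPS, and was at 2.20 ± 0.31 over Veh_N (adjusted p = 2.97e-05, edgeR). It could be tested only because it was high in D2HG_LPS. Of the other members, 15 were called higher and 6 lower with LPS and not called with the ester. Over all genes, 35.0% were called higher and 38.9% lower with LPS, and 1.15% higher and 0.955% lower with the ester. The 15 members called higher with LPS alone were Atf3, Ppp1r15a, 8 synthesis genes and 5 transporters. Eif2ak1, Ddit3, Eif4ebp1, Gpt2 and Slc1a5 were called in neither.

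Levels of different members were compared per kilobase of transcript. In every group Atf3 was highest, at 130, 524 and 591 CPM per kb in Veh_N, Veh_LPS and D2HG_LPS. Slc3a2 (96.5, 173 and 209 CPM per kb) and Atf4 (83.4, 161 and 225) followed. Nupr1 went from 8.85 to 93.8 and 131 CPM per kb, and Jdp2 from 4.62 to 50.7 and 91.3. The feedback genes with the largest ester fold changes were among the scarcer members, Trib3 at 2.14, 1.1 and 3.24 CPM per kb and Chac1 at 0.365, 0.435 and 1.74.

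Too low to test were 3 members. Vldlr, a lipoprotein receptor gene listed as an ATF4 target, had 21 counts over the Veh_N libraries, 0 over Veh_LPS and 4 over D2HG_LPS. Pycr1, in proline synthesis, had 11, 14 and 14 counts, and Stc2, a secreted glycoprotein gene, 2, 3 and 0. Differences in Pycr1 and Stc2 were not detectable at this depth.

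Lists of neighbouring pathways were counted in the same way, against 1.15% of all genes called higher and 0.955% lower with the ester, and 936 higher and 896 lower of 11622 by unadjusted p. With the ester, edgeR called 0 of 15 other eIF2 pathway genes (where 1 was higher and 2 lower by unadjusted p under 0.05), 0 of 20 cytosolic tRNA synthetases (2 and 0), 0 of 12 other serine and one-carbon genes (1 and 1), 0 of 17 other amino acid transporters (1 and 1) and 0 of 14 other amino acid enzymes (3 and 0). It also called 0 of 19 genes of endoplasmic reticulum folding and the other unfolded protein branches (2 and 1), 0 of 11 mitochondrial stress genes (1 and 0) and 0 of 18 genes of mTORC1 and amino acid sensing (1 and 1). The medians of these 8 lists lay between -0.10 and 0.06. Of 18 other bZIP factors, the family of ATF4, 1 rose: Fos, the partner of Jun, which was 25.1 ± 1.73 CPM in Veh_LPS and 43.5 ± 2.94 in D2HG_LPS (SD, n = 3), a log2 fold change of 0.79 ± 0.15 (adjusted p = 0.0207, edgeR).

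With LPS the counts of these lists stand beside 35.0% of all genes called higher and 38.9% lower. Of 20 tRNA synthetases 14 rose and 2 fell, led by Wars, the tryptophan enzyme, which is also interferon-induced, from 41 ± 2.42 to 309 ± 12.2 CPM. The eIF2 genes rose in 7 and fell in 4 of 15. Among them Eif2ak2, the double-stranded RNA kinase PKR and the remaining eIF2 kinase, went from 54.7 ± 8.55 to 595 ± 72.5 CPM (log2 fold change 3.44 ± 0.13), and Ppp1r15b, the constitutive counterpart of GADD34, rose by 2.95 ± 0.09. Of 12 other serine and one-carbon genes 7 rose and 2 fell, with Phgdh, the entry enzyme of serine synthesis, at 1.80 ± 0.15. Other amino acid transporters divided into 8 higher and 8 lower of 17, with the arginine importer Slc7a2 at 6.49 ± 0.19 and the leucine transporter Slc43a2 at -3.73 ± 0.08. Other amino acid enzymes rose in 4 and fell in 6 of 14, with glutamine synthetase, Glul, at -2.42 ± 0.09. Folding genes of the endoplasmic reticulum rose in 10 and fell in 3 of 19, with the chaperone Hspa5 at 1.35 ± 0.08. Genes of mTORC1 and amino acid sensing fell in 10 and rose in 5 of 18, and Sesn1, a relative of Sesn2, went from 263 ± 5.36 to 5.07 ± 0.454 CPM. Mitochondrial stress genes rose in 5 and fell in 2 of 11. Other bZIP genes rose in 9 and fell in 4 of 18, and Cebpa, a factor of myeloid differentiation, went from 94 ± 9.26 to 1.94 ± 0.521 CPM.

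**Figure D5:**
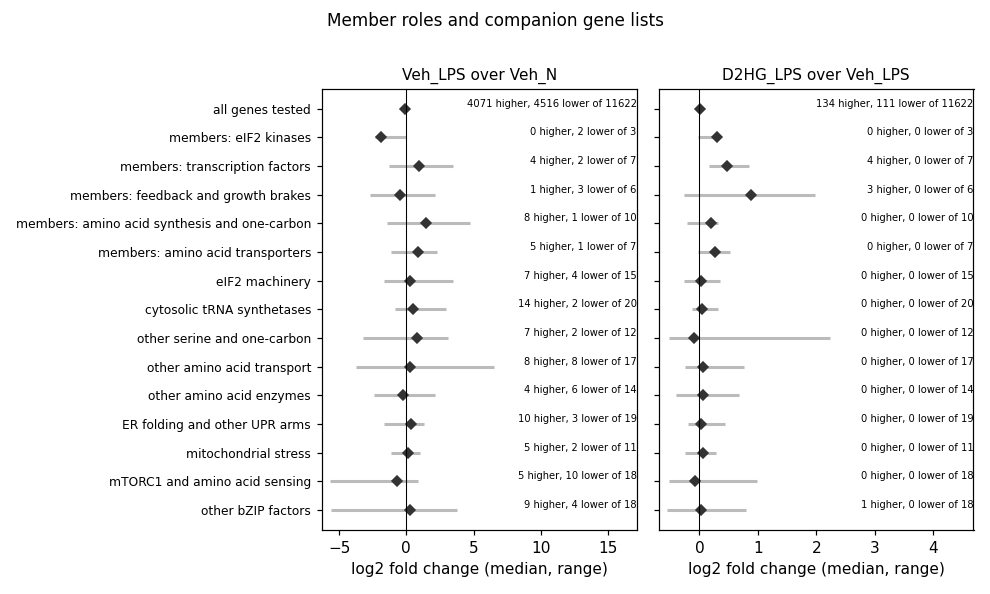
Median (diamond) and range (bar, not drawn for all genes) of the log2 fold changes of member roles and of neighbouring pathway lists, for Veh_LPS over Veh_N and D2HG_LPS over Veh_LPS, with the number of genes called higher and lower of those tested. Of the roles and lists drawn, those with calls with the ester are the transcription factors, the feedback genes and the other bZIP genes, and all have calls with LPS. The secreted and surface targets, with Gdf15 as the 1 tested and called, are not drawn.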

How the data were processed

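Per the labels' protocols, RNA was purified on Qiagen RNeasy columns and made into stranded KAPA libraries. STAR 2.5.2b and DESeq2 are named per the submitters' processing notes, with builds mm10 and mm9. The program, annotation and strand setting behind the counts were not given in the sources used here. The authors deposited raw read counts for 35745 RefSeq transcripts. Symbols came from a RefSeq gene table (35435) and GENCODE vM21 identifiers (193, Pycr1 among them). The 117 unmatched transcripts held 0.676% to 2.37% of a library's counts and stayed out. The transcript with most counts stood for each gene, and the sum over transcripts was an alternative. Genes kept by filterByExpr, about 10 counts (0.858 CPM) in at least 3 libraries, were scaled by TMM and fitted over all 9 libraries with glmQLFit (robust) and tested with glmQLFTest in edgeR 4.0.16 (R 4.3.3), two-sided. Genes with an adjusted p (Benjamini-Hochberg over 11622 genes) below 0.05 were called. Counting intervals are exact binomial (95%) and cover counting error only, since reads carried no molecular identifiers. Alternatives, among them DESeq2 1.42.0 and limma-voom 3.58.1, numbered 18.

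The members and lists were chosen with earlier results of these data known. Named genes were Atf4, Ddit3, Atf3, Trib3, Chac1, Asns, the 3 kinases, members called with the ester, the 10 members with the largest called LPS changes, and up to 4 called genes of each list. Other members are given by level or fold change, and those with values in every library outside this rule (Slc38a2) were chosen after their values were seen. Replicates of a group differed beyond counting noise in each pair (2.7 to 22.5 chi-square units per degree of freedom), and each was kept as a sample of its own. Promoters came from RefSeq (GRCm38.p6). In 3 of 42 member windows the bases after the start did not match a GENCODE transcript.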

Additional observations from a re-analysis of the deposited data

How the results depend on the processing

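With library totals alone, LPS against vehicle gave 2112 genes higher and 7589 lower, 14 members lower and a median member value of -0.08, and the sign turned for Aldh18a1 (-0.26), Slc1a4 (-0.03), Slc1a5 (-0.46) and Gdf15 (-0.12). For D2HG_LPS against Veh_N it gave 2178 higher, 7283 lower, 13 members lower and a median of 0.61, and turned Atf5 (-0.54), Ddit3 (-0.32), Trib3 (0.00), Eif4ebp1 (-0.41), Aldh18a1 (-0.03), Gpt2 (-0.53) and Slc1a5 (-0.27). For the ester it gave 212 genes higher, 73 lower and a median of 0.35. The share of ester calls that were higher was 54.7% with TMM, 40.8% with RLE factors, 57.8% with upper-quartile scaling and 74.4% with library totals, and members called were 7 to 9 higher and 0 lower. Upper-quartile scaling gave medians of 0.27 (LPS) and 0.91 (D2HG_LPS against Veh_N) and turned Ddit3 in the latter (-0.01). For the ester, DESeq2 called 343 genes lower and the fit of 2 groups 253. No pairing by replicate number was seen (same-number correlations of deviations -0.456 to 0.191, different-number -0.391 to 0.529). The labels do not say what a replicate number shares, and 3 libraries per group cannot exclude pairing. With a replicate block the ester gave 53 genes higher, 40 lower and 5 members higher, without Atf4, Nupr1 and Gdf15. Leaving out 1 library at a time gave 35 to 230 genes higher, 29 to 271 lower and 2 to 11 members higher for the ester, and medians of 1.13 to 1.24 for D2HG_LPS against Veh_N. Within these alternatives no ester value of a member called in the main result changed sign, and Jdp2 and Trib3 kept their calls in all 18. The cause of these changes was not tested. Depth limits Chac1, Cth, Ddit4 and Slc6a9, which fell under the filter in part of the libraries.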
